A study of Mus musculus with 6 samples.

Results

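Accessible chromatin around the Cxcl chemokine genes that attract neutrophils was examined on mouse chromosome 5, between 91.15 and 91.40 Mb of mm9. Members were chosen by position alone. They are the DNase I hotspots, stretches where DNase I cuts more than in the surroundings, that overlap this 250-kb interval in any of 6 libraries. The interval held 80 of the 253044 deposited hotspots. Merging hotspots that overlapped between libraries gave 17 regions out of 59069 in the genome, numbered 1 to 17 along the chromosome. All libraries came from C57BL/6J mouse macrophages grown out of bone marrow, and every group received lipopolysaccharide (LPS), a bacterial surface molecule that triggers inflammation, for 8 h. In 2 libraries this was the sole treatment (LPS alone). In 2 others the cells were given Dex, the glucocorticoid of the study, ahead of LPS (Dex before LPS), and in the last 2 Dex came late in the LPS treatment (Dex late). The dose of Dex and the intervals are not given in the labels used here, which also do not say whether libraries 1 and 2 of a group came from separate animals. Cells without LPS, and cells with Dex but no LPS, were not analysed here, so no value below measures the response to LPS itself.

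Chemokines of the Cxcl family are small secreted proteins that guide leukocytes. Cxcl1, Cxcl2, Cxcl3 and Cxcl5 bind the receptor Cxcr2 on neutrophils and draw these cells into inflamed tissue. In macrophages LPS signals through Toll-like receptor 4 to the transcription factor NF-kB, which induces several of these genes. Glucocorticoids act through the glucocorticoid receptor, which can bind DNA at palindromic response elements and can also repress genes driven by NF-kB. In the RefSeq annotation of GRCm38.p6, another build of the mouse genome, 7 protein-coding genes follow each other from Cxcl5 to Cxcl2 on chromosome 5. They are Cxcl5, Ppbp and Pf4 (platelet chemokines), Cxcl3, Cxcl15 (a lung chemokine), Cxcl1 and Cxcl2. Gene positions in mm9 were not used, so regions are described by position and none is assigned to a gene or called a promoter, exon or intron. For the same reason the hotspots were not checked at macrophage marker genes.

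Promoter sequences, 250 bases up to the base before the annotated start, are shown for the 3 genes whose promoters share the NF-kB motif GGGAATTTCC, the motif given in capitals. They are on the plus strand and come from RefSeq for GRCm38.p6, at chr5:90785851-90786100 for Cxcl3, chr5:90890995-90891244 for Cxcl1 and chr5:90903649-90903898 for Cxcl2. These positions cannot be set beside the mm9 positions of the hotspots.
Cxcl3: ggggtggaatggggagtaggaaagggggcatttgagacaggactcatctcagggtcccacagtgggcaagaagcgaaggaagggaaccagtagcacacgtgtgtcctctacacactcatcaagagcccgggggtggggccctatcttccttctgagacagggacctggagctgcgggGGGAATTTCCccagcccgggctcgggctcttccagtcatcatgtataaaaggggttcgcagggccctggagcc
Cxcl1: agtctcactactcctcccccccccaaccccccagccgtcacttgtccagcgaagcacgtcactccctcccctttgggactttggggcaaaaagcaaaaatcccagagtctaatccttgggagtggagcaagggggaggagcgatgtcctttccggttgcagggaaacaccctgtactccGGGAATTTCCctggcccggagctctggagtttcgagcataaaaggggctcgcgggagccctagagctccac
Cxcl2: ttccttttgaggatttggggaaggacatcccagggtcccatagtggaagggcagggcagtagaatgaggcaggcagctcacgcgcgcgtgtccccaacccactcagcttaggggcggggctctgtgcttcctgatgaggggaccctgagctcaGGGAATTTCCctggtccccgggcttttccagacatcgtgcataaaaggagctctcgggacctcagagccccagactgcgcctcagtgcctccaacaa
The motif begins 73 bases before the start of Cxcl3, 71 before Cxcl1 and 97 before Cxcl2. Both strands of all 32851 promoters of this length were searched, and 28 (0.0852%) held these letters. So did 3 of the 6 genes of the cluster for which a promoter was found. The letters were picked from the cluster's own promoters, as the NF-kB match shared by the largest number of its genes. The 3 genes are also among the 28, so setting these shares side by side is not a test. The wider NF-kB consensus, which includes these letters, was in 7.25% of promoters and in the same 3 genes of the cluster. The full glucocorticoid response element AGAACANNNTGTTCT was in 3 of the 32851 promoters (0.00913%) and in 0 of the 6. Its core ACANNNTGT was in 5.84% of promoters and in that of Cxcl1, 85 to 77 bases before the start. The AP-1 motif TGANTCA was in 6.75% of promoters and in that of Ppbp. Both the promoter sequences and the motifs were looked at with the hotspot data known, and a match is a stretch of letters, not a bound site.

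The 6 lists differed in length, from 29347 hotspots in library 1 of Dex late to 51834 in library 2 of LPS alone, and in the lowest z-score they listed, from 7.98 to 11.6. Tag density and z-score are the authors' values for each hotspot. Total tag numbers are not known. The maximum densities were whole multiples (within 0.1 of a step) of a step that differed between libraries. This step was 0.334 and 0.347 with LPS alone, 0.412 and 0.380 with Dex before LPS, and 0.400 and 0.443 with Dex late. It was thus larger in every Dex library than in both libraries of LPS alone. Whether the step bears on the differences below was not tested. A maximum density in the 7 regions listed by every library equalled 29 to 92 such steps, which limits its precision.

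The 17 regions were placed unevenly. Regions 1 to 5 lay in 48.3 kb at the low end of the interval, followed by 62.9 kb in which no library listed a hotspot. Regions 6 to 15 lay within 79.0 kb, and 7 of these, regions 8 to 14, within 32.9 kb. Regions 10, 11 and 12 stood closest together among the strong ones, in 7.29 kb from 91326149 to 91333435. Of 10564 stretches of 250 kb across the genome, 6791 held any region, with a median of 7 regions. Among these, 934 (8.84% of the 10564) held 17 or more regions.

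**Figure D1:**
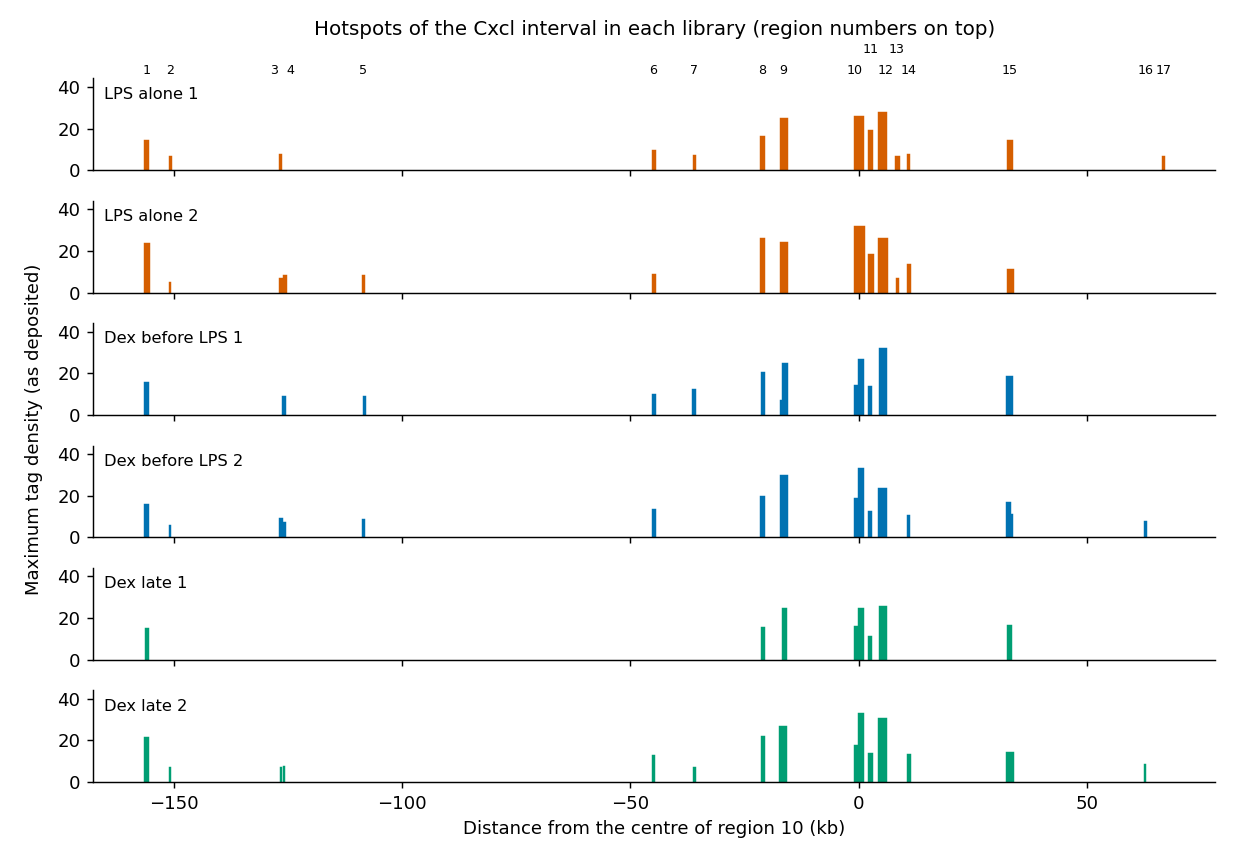
Hotspots of the Cxcl interval in the 6 libraries. The x axis is the distance from the centre of region 10 in kb, the y axis the deposited maximum tag density, each bar 1 hotspot drawn at its width with a thin outline, colours the 3 groups, and numbers the merged regions. The 7 regions listed by all 6 libraries hold the tall bars, and library 1 of Dex late shows no other region.

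Every library listed regions 1, 8, 9, 10, 11, 12 and 15. These 7 of 17 (41.2%) compare with 25091 of 59069 regions (42.5%) in the genome. LPS alone listed 14 regions in each library, Dex before LPS 11 and 14, and Dex late 7 and 14. Both libraries of LPS alone shared 12 regions, those of Dex before LPS 10 and those of Dex late 7. Library 1 of Dex late, whose list was the shortest and began at a z-score of 11.6, held the 7 shared regions and none of the other 10.

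Presence separated LPS alone from all 4 Dex libraries at 1 region. Region 13, at 91335321 to 91336021, was listed by both libraries of LPS alone, with maximum densities of 7.02 and 6.94 and z-scores of 11.9 and 10.1, and by no Dex library. It was weak, at the percentiles 30.0 and 16.7 of z-score in its lists. In the genome 3062 of 59069 regions (5.18%) had this pattern, against 1 of 17 (5.88%) here. No region of the cluster was listed by the 4 Dex libraries and by neither library of LPS alone, a pattern of 230 regions (0.389%) in the genome. Both hotspots of region 13 dropped out of the LPS lists when all lists were limited to equal length, and 1 of them did at a common minimum z-score of 11.6. The list of library 1 of Dex late began at a z-score of 11.6, between these values, whereas those of Dex before LPS, at 9.34 and 9.16, and of library 2 of Dex late, at 8.98, reached below both.

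Region 5, at 91218485 to 91219067, was listed by both libraries of Dex before LPS and by neither of Dex late. Its maximum densities were 9.06 and 8.73 in the libraries of Dex before LPS and 8.68 in library 2 of LPS alone. Its z-scores of 10.2, 9.90 and 10.5 in these 3 libraries lay below the lowest z-score of library 1 of Dex late, but above that of library 2 of Dex late, 8.98. In the genome 903 regions (1.53%) were listed by both libraries of Dex before LPS and neither of Dex late.

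The remaining 8 regions lay mostly in the lower part of the lists. The highest percentiles of z-score among them were 53.0 for region 14 in library 2 of LPS alone and 46.2 for region 6 in library 2 of Dex before LPS. Region 6, at 91281969 to 91282659, was missing from library 1 of Dex late alone, and its maximum densities were 9.70 and 9.03 with LPS alone, 9.88 and 13.7 with Dex before LPS, and 12.8 in library 2 of Dex late. Regions 2, 3 and 14 were listed by both libraries of LPS alone and by library 2 of each Dex group, and by library 1 of neither. This pattern, which follows the replicate number among the Dex libraries, was seen in 3 of 17 regions (17.6%) here and in 4078 (6.90%) in the genome. Regions 4 and 7 were listed by 4 and 3 libraries in mixtures that followed no group. Region 16 was listed by library 2 of each Dex group and by no other library. No share over all regions was counted for this pattern. Only library 1 of LPS alone listed region 17. Over the 10 regions that some library did not list, maximum density ran from 5.21 to 13.9 and the z-score from 8.76 to 17.8. In the 7 shared regions the lowest values were 11.1 and 15.2.

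The 7 shared regions were then compared by maximum tag density, the highest density of tags in the region. Libraries were scaled to the same median over all 25091 regions listed by all 6 libraries, and log2 differences were tested with limma over these regions with Benjamini-Hochberg adjustment. Region 12 and region 10 carried the highest densities of the cluster, with group means of 26.9 to 28.6 and 28.8 to 29.8, and region 11 (13.0 to 18.6) and region 15 (12.6 to 17.7) the lowest with LPS alone and with Dex late. With Dex before LPS region 1, at 15.7, lay below region 15. By z-score, region 12 stood between the percentiles 73.6 and 78.1 of the shared regions in every library, and region 9 between 63.4 and 70.7.

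**Figure D2:**
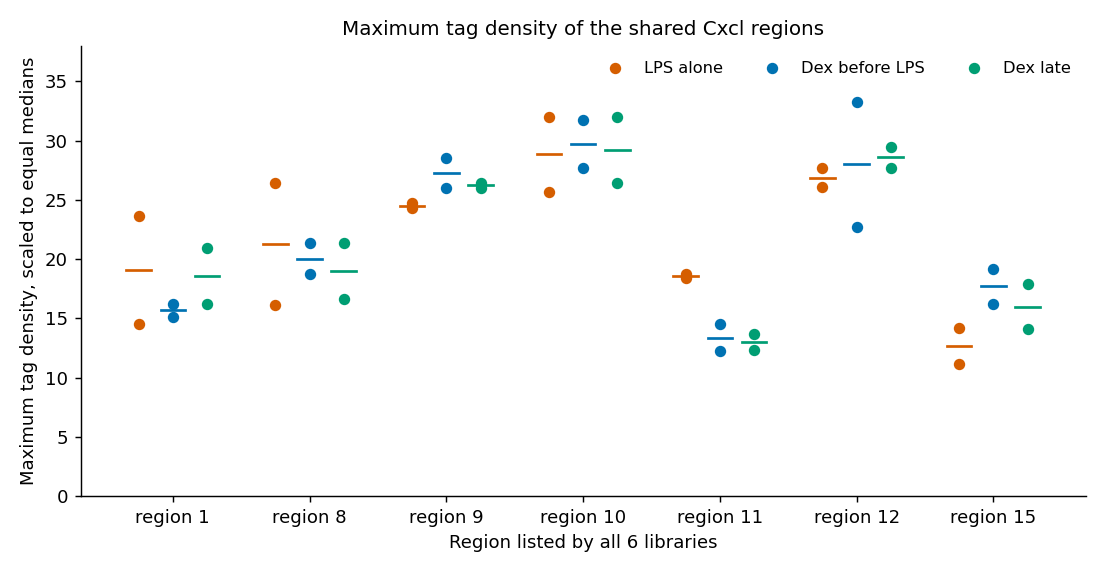
Maximum tag density of the 7 shared regions. The x axis names the region, the y axis is the density after scaling to equal medians, points are single libraries, colours the groups, and short lines the group means of 2 libraries. At region 11 both LPS points (18.8 and 18.4) lie above the 4 Dex points (12.3 to 14.5), while at regions 1, 8 and 10 the groups overlap.

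With Dex before LPS, 0 of the 7 regions differed from LPS alone at an adjusted p under 0.05 (limma), and 0 had an unadjusted p under 0.05. In the genome 16 of 25091 regions (0.0638%) were called, 12 higher (0.0478%) and 4 lower (0.0159%), and 2041 (8.13%) had an unadjusted p under 0.05. This fit did not pair libraries by number. An alternative fit with a replicate block called 1013 regions here and 629 with Dex late, and 0 of the 7 in either. The median log2 difference of the 7 was 0.03, and that of all shared regions 0.03. After scaling, the libraries of the groups did not overlap at 3 of the 7, with regions 9 and 15 higher and region 11 lower with Dex. In the genome 17.1% of shared regions were higher and 18.7% lower without overlap.

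With Dex late, 0 of the 7 regions differed from LPS alone at an adjusted p under 0.05 (limma), against 6 of 25091 (0.0239%), and 1, region 11, had an unadjusted p under 0.05, as did 6.55% of all shared regions. The median log2 difference was 0.02 over the 7 and 0.03 over all. After scaling, regions 9 and 12 were higher and region 11 lower without overlap of the libraries, where 16.9% and 16.5% of all shared regions were. At region 12 library 1 of Dex late (27.74) lay just above library 1 of LPS alone (27.67). As deposited, the libraries overlapped at regions 9 and 12 and did not at region 11. Both Dex groups were set against the same libraries of LPS alone, so their differences are not independent of each other.

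Region 11, at 91329229 to 91330339, was the member with the lowest values under Dex relative to LPS alone. Its deposited maximum density was 19.1 and 18.4 with LPS alone, 14.0 and 12.9 with Dex before LPS, and 11.6 and 14.2 with Dex late. All 4 Dex libraries lay below both libraries of LPS alone, as deposited and scaled. The scaled values did so at 9.45% of all shared regions. After scaling the means were 18.6 ± 0.246, 13.4 ± 1.58 and 13.0 ± 0.905 (SD, n = 2 each). The log2 difference from LPS alone was -0.48 (95% interval -0.98 to 0.02, limma adjusted p = 0.643) with Dex before LPS. With Dex late it was -0.52 (-1.02 to -0.02, limma adjusted p = 0.74). Ranked by p among the 25091 regions, region 11 had 9.13% of regions ahead of it in the first comparison and 6.0% in the second.

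Region 11 was also lower in the 4 Dex libraries than with LPS alone by z-score and width. Its z-score was 29.3 and 31.1 with LPS alone, 15.8 and 15.2 with Dex before LPS, and 16.3 and 18.6 with Dex late. Among the shared regions this placed it at the percentiles 44.8 and 51.9 with LPS alone and between 7.63 and 20.9 in the 4 Dex libraries. Tested in the same way, the log2 difference in z-score was -0.85 (limma adjusted p = 0.187) with Dex before LPS and -0.63 (limma adjusted p = 0.478) with Dex late. The hotspot was 959 and 1105 bp wide with LPS alone and 645, 657, 607 and 829 bp in the Dex libraries. Its left end moved little, from 91329229 to 91329287 over the 6 libraries. Its right end lay at 91330188 and 91330339 with LPS alone and between 91329890 and 91330082 with Dex. In z-score, width and right end the 4 Dex libraries lay below both of LPS alone, as they did at 8.96%, 33.9% and 26.6% of all shared regions and at 1, 3 and 4 of the 7. In these measures and maximum density together, 758 of 25091 regions (3.02%) and 1 of the 7 did. For these counts z-score and maximum density were scaled to equal medians. Region 11 was singled out by its values, and the measures were combined with these known, so the share is not a test. Width and right end are also nearly 1 measure here, since the left end moved little. Neither maximum density, z-score nor width of region 11 passed the test over all shared regions, and the right end was not tested. The Dex groups overlapped in width and had no common order, since maximum density was on average lower and z-score and width higher with Dex late than with Dex before LPS.

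**Figure D3:**
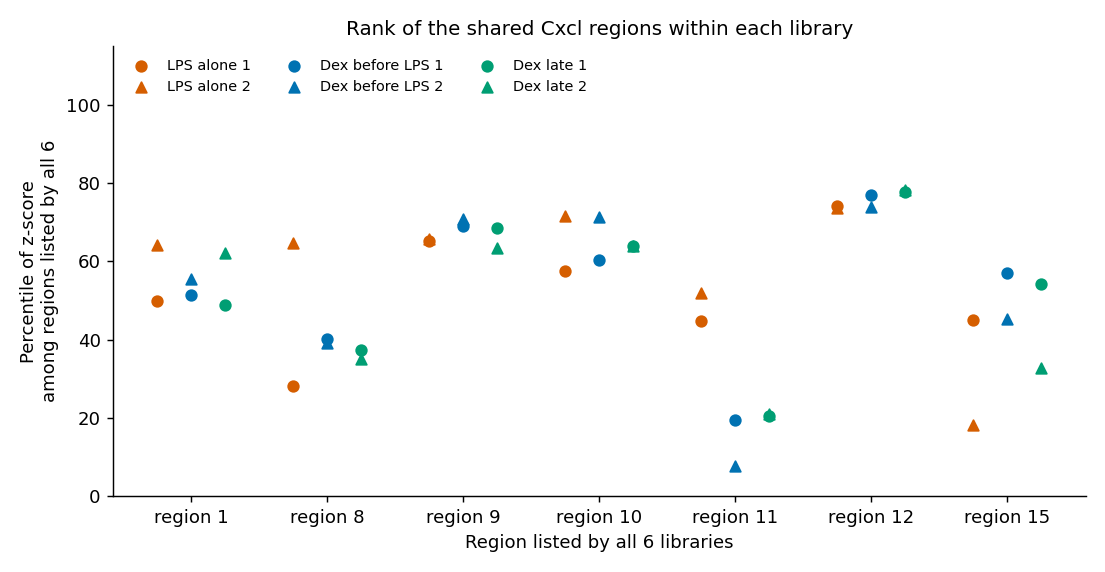
Percentile of z-score of the 7 shared Cxcl regions among the 25091 regions listed by all 6 libraries. The x axis names the region, the y axis is the percentile within a library, circles are libraries 1 and triangles libraries 2, and colours the groups. Region 11 stands at 44.8 and 51.9 with LPS alone and at 7.63 to 20.9 with Dex, while region 12 stays between 73.6 and 78.1.

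Region 10, at 91326149 to 91328343 and 886 bp before region 11, was listed in a different form in the groups. Both libraries of LPS alone listed it as a single hotspot, 2075 and 2180 bp wide. All 4 Dex libraries listed 2 hotspots there, a left one of 756 to 940 bp and a right one of 915 to 1144 bp. The gap between them measured 193 and 41 bp with Dex before LPS and 171 and 8 bp with Dex late. Gaps of this size are small beside the hotspots, and the smallest lay in both libraries 2. Single libraries divided other shared regions as well. Library 1 of Dex before LPS listed region 9 as 2 hotspots, the left ending at 91310400 and the right beginning at 91310422. Library 2 of Dex before LPS did so at region 15, between 91360424 and 91360425.

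The height of region 10 did not follow this division. The single hotspots of LPS alone had maximum densities of 26.1 and 31.9. The right hotspots reached 26.8 and 33.4 with Dex before LPS and 24.8 and 33.2 with Dex late, and the left ones 14.4, 19.0, 16.0 and 17.7 in the same order of libraries. The log2 difference of the maximum was 0.05 (95% interval -0.49 to 0.59) with Dex before LPS and 0.02 (-0.52 to 0.56) with Dex late. A single hotspot in both libraries of LPS alone with at least 2 in all 4 Dex libraries was found at 109 of 25091 shared regions (0.434%), and the reverse at 41 (0.163%). Among the 1490 shared regions within 10% of its width the numbers were 23 (1.54%) and 9 (0.604%). This pattern was singled out after the values were seen and was not tested, and with hotspots up to 500 bp apart merged it does not exist.

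**Figure D4:**
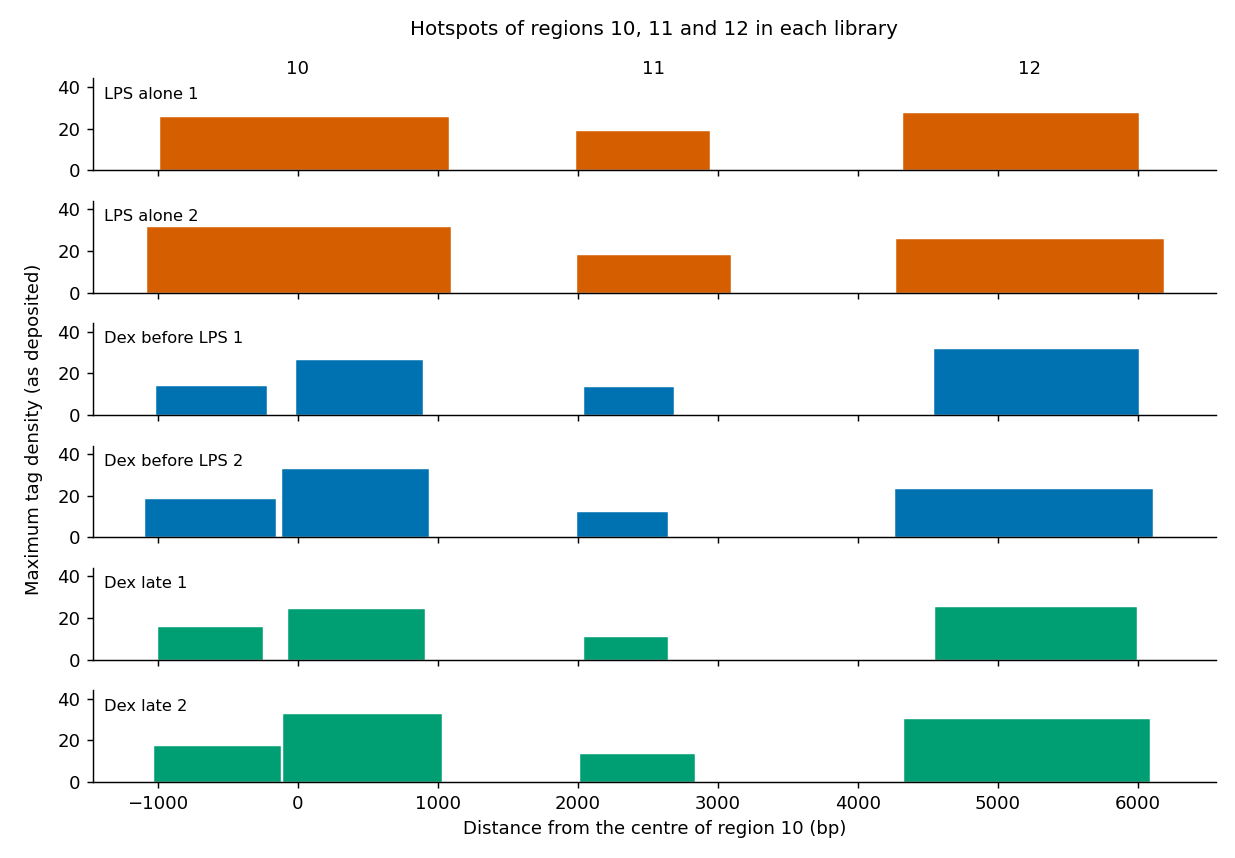
Hotspots of regions 10, 11 and 12 in each library. The x axis is the distance from the centre of region 10 in bp, the y axis the deposited maximum tag density, and each bar 1 hotspot at its true width. Region 10 is 1 bar in both libraries of LPS alone and 2 bars in the 4 Dex libraries, and the bar of region 11 is shorter and narrower with Dex.

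Region 15, at 91359582 to 91361007, ran the other way. Its deposited maximum density was 14.4 and 11.1 with LPS alone, 18.5 and 17.1 with Dex before LPS, and 16.8 and 14.6 with Dex late. The 4 Dex libraries lay above both libraries of LPS alone as deposited, for which no share over all shared regions was counted. After scaling, library 2 of Dex late (14.1) lay just under library 1 of LPS alone (14.2). The log2 difference was 0.49 (95% interval -0.07 to 1.05, limma adjusted p = 0.698) with Dex before LPS and 0.34 (-0.22 to 0.90, limma adjusted p = 0.966) with Dex late. By z-score the groups overlapped, at 29.4 and 18.9 with LPS alone, 31.9 and 28.5 with Dex before LPS, and 29.5 and 22.2 with Dex late.

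Region 9, at 91309811 to 91311644, had similar densities in the 3 groups. Its scaled maximum density was 24.5 ± 0.259 with LPS alone, 27.3 ± 1.76 with Dex before LPS and 26.2 ± 0.302 with Dex late (SD, n = 2 each). After scaling, all 4 Dex libraries lay above both of LPS alone, as at 8.96% of all shared regions, whereas as deposited library 1 of Dex late (24.8) lay below library 1 of LPS alone (25.1). The differences were small, with log2 differences of 0.15 (95% interval -0.33 to 0.64) and 0.10 (-0.39 to 0.58). By z-score the groups overlapped, at 43.7 and 39.3 with LPS alone, 42.9 and 44.5 with Dex before LPS and 41.9 and 35.2 with Dex late.

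Regions 1, 8 and 12 differed between libraries of a group by as much as between groups. Region 1, at 91170754 to 91171756, had deposited maximum densities of 14.7 and 23.6 with LPS alone, 15.6 and 15.9 with Dex before LPS, and 15.2 and 21.7 with Dex late. Region 8, at 91305570 to 91306530, had 16.4 and 26.4 with LPS alone, 20.6 and 19.7 with Dex before LPS, and 15.6 and 22.1 with Dex late. In both, library 2 of LPS alone stood highest. The libraries of LPS alone enclosed all 4 Dex libraries at region 1, and all except library 1 of Dex late at region 8. Region 12, at 91331501 to 91333435, had 28.1 and 26.0 with LPS alone, 32.1 and 23.9 with Dex before LPS, and 26.0 and 30.6 with Dex late, so that all 3 groups overlapped as deposited. The intervals of the 6 log2 differences from LPS alone in these regions all included 0 and together reached from -0.88 to 0.66.

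The direct comparison of both Dex groups asks whether the time of Dex matters for the cluster. Here 0 of the 7 shared regions differed at an adjusted p under 0.05 (limma), 0 had an unadjusted p under 0.05, and 0 of 25091 regions (0.00%) were called in the genome, where 717 had an unadjusted p under 0.05. The log2 differences, Dex late minus Dex before LPS, ran from -0.15 at region 15 to 0.23 at region 1, with a median of -0.04 beside 0.01 over all shared regions. At region 11 the difference was -0.04 (95% interval -0.54 to 0.46). After scaling, the libraries of the Dex groups overlapped at all 7 regions, where 14.5% of shared regions were higher and 12.3% lower with Dex late without overlap. At region 1 this rests on a tie, since library 1 of both Dex groups had a scaled density of 16.2. There library 2 had 15.2 with Dex before LPS and 20.9 with Dex late.

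**Figure D5:**
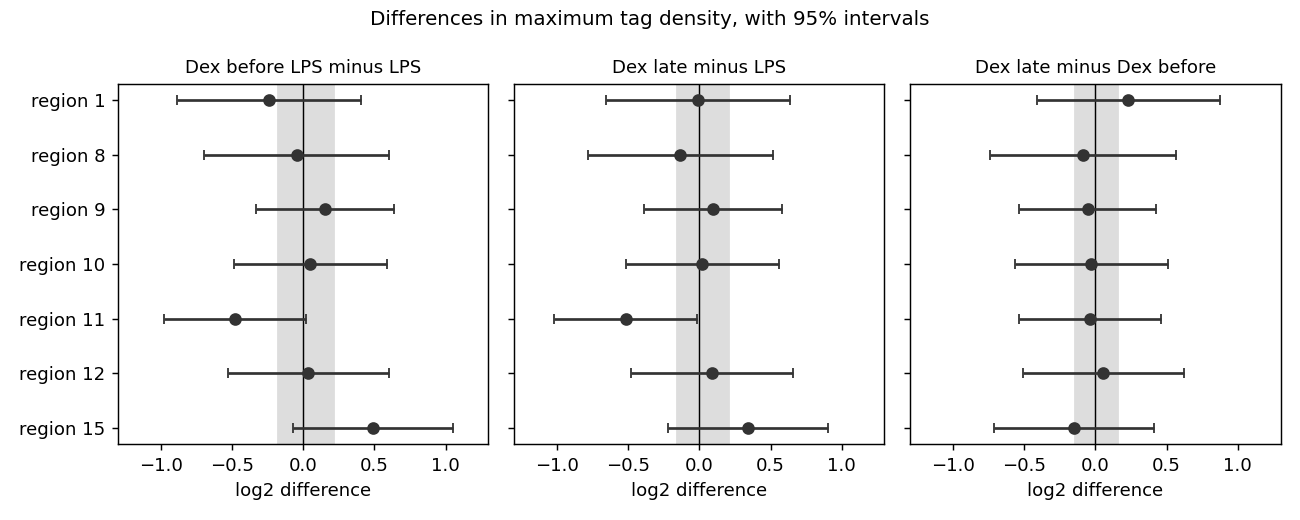
Log2 differences in maximum tag density of the 7 shared regions. The x axes give the difference for each of the 3 comparisons, the y axis names the region, points are limma estimates, whiskers 95% intervals, and grey bands the middle 50% of all 25091 shared regions. Region 11 lies at -0.48 and -0.52 in the comparisons with LPS alone and at -0.04 between the Dex groups.

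Hotspots covered 13.2 and 13.5 kb of the interval with LPS alone, 10.3 and 12.5 kb with Dex before LPS, and 7.03 and 11.7 kb with Dex late. As deposited, every Dex library covered less than both libraries of LPS alone. The means were 13.4 ± 0.257, 11.4 ± 1.55 and 9.36 ± 3.29 kb (SD, n = 2 each). Exact two-sided permutation tests gave p = 0.333 for either Dex group against LPS alone, the smallest p that 2 against 2 libraries allow, and p = 0.667 between the Dex groups. The lists as a whole covered 40.6 and 44.3 Mb with LPS alone, 28.1 and 37.6 Mb with Dex before LPS, and 23.5 and 36.2 Mb with Dex late. In each Dex group library 1 had the shorter list in the genome and covered less of the interval. With lists of equal length the difference from LPS alone was -0.57 kb in place of -1.91 kb with Dex before LPS (exact permutation p = 0.333). With Dex late it was -1.62 kb in place of -4.00 kb (exact permutation p = 0.667), and the libraries then overlapped. At a common minimum z-score the differences were -1.20 and -2.78 kb. With each library left out in turn, the difference with Dex before LPS ranged from -3.01 kb without its library 2 to -0.81 kb without its library 1. Without library 1 of Dex late, the difference of Dex late from LPS alone was -1.67 kb, without library 2 it was -6.32 kb, and without library 1 Dex late covered 0.24 kb more than Dex before LPS.

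The number of hotspots did not follow the covered length. It was 14 and 14 with LPS alone, 13 and 16 with Dex before LPS, and 8 and 15 with Dex late. Library 2 of Dex before LPS thus listed the most hotspots and covered less than LPS alone, with regions 10 and 15 listed as 2 hotspots each.

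Just outside the interval, the nearest region at the low end lay 2.62 kb away, at 91146883 to 91147385. Both libraries of LPS alone listed it, at maximum densities of 6.69 and 7.64 and z-scores of 11.7 and 9.57. No Dex library did, a pattern of 5.18% of regions in the genome. The list of library 1 of Dex late began at a z-score of 11.6, between these values. Those of Dex before LPS, at 9.34 and 9.16, and of library 2 of Dex late, at 8.98, reached below both. At the high end the nearest region lay 28.7 kb away, at 91428746 to 91429571. It was listed by both libraries of LPS alone, at z-scores of 20.7 and 20.9, and by library 2 of Dex late at 12.3. Neither library of Dex before LPS listed it. In the genome 5007 of 59069 regions (8.48%) were listed by both libraries of LPS alone and neither of Dex before LPS.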

How the data were processed

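DNase-seq libraries of 6 samples, grouped by their titles, were read as hotspot lists, 1 for each library. The labels' protocols describe a DNase I digest of nuclei, a selection of fragments of 100 to 500 bp and single reads of 51 bp. The submitters' processing notes name the build mm9 and CASAVA. No source used here gives the aligner, the caller of hotspots, its threshold or the scaling. Per the file headers, the deposited signal values are the maximum and average tag density of a hotspot. Each hotspot also has a deposited score, which the headers call a z-score. The deposited p-value of each hotspot, per the file headers, was not used. Positions are printed as deposited, and whether they count from 0 or 1 is not stated.

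Hotspots were merged across libraries where they overlapped by at least 1 bp (Python 3.11.15, pandas 2.3.3). For regions listed by all 6 libraries, log2 of the highest maximum density was shifted to equal medians and fitted with limma 3.58.1 (R 4.3.3), with all 6 libraries in the fit and without a replicate block. Being listed by every library is itself a filter, so regions lost in 1 group have no density value. Covered length was compared by exact permutation. The text names every region listed by all 6 libraries, and every region listed by both libraries of 1 group and neither of another. Others are given by counts and ranges, except region 6, whose values were added after they were seen. Members, motifs and tests were chosen with earlier results of these data known. SDs and p-values reflect the spread between the libraries at hand, part or all of which may be technical. Alternatives were other scalings, measures, merging, list lengths, a replicate block and each library left out.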

Additional observations from a re-analysis of the deposited data

How the results depend on the processing

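None of the 21 density differences of the 7 shared Cxcl regions passed an adjusted p of 0.05 (limma) in the processing reported or in any of its 306 repeats under the alternatives, where the smallest adjusted p was 0.142 and 270 kept their direction. Region 11 kept its sign in all 15 settings that tested it, which include the processing reported. Its differences ran from -0.85 to -0.36 with Dex before LPS and from -0.63 to -0.28 with Dex late. Region 15 also kept its sign, from 0.32 to 0.67 and from 0.17 to 0.51. Some settings, also among the 306 repeats, could not change a difference but only its p-value. These were the replicate block, a trend in the prior variance and leaving out a library of the group not compared. The cause of the reversals and altered counts below was not tested. Summed hotspot width, and presence with a library left out, were added after seeing the data.

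Some differences changed sign, and with a library left out these reached 0.35. With average density, region 8 gave 0.0044 and region 9 -0.031 with Dex before LPS, and region 1 gave 0.013 and region 9 -0.059 with Dex late. With summed width, region 10 gave -0.043 with Dex before LPS, region 9 gave -0.097 with Dex late, and regions 1, 10 and 11 gave -0.10, 0.13 and 0.22 between the Dex groups. The z-score gave 0.23 for region 11 between the Dex groups. Region 12 with Dex before LPS gave -0.025 after quantile normalization and -0.0033 without the lower 50% of regions by density. Region 10 with Dex late gave -0.0079 without scaling and -0.0038 without that lower part. With each library left out in turn, Dex before LPS gave ranges of -0.59 to 0.11 at region 1, -0.40 to 0.31 at region 8, -0.11 to 0.21 at region 10 and -0.24 to 0.31 at region 12. Dex late gave -0.36 to 0.35 at region 1, -0.49 to 0.22 at region 8 and -0.14 to 0.18 at region 10. Between the Dex groups the ranges were -0.27 to 0.092 at region 8, -0.12 to 0.012 at region 9, -0.17 to 0.11 at region 10, -0.16 to 0.083 at region 11, -0.22 to 0.33 at region 12 and -0.33 to 0.021 at region 15. The difference in covered length between the Dex groups ranged from -4.42 to 0.24 kb.

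Calls over the whole genome, 12 higher and 4 lower with Dex before LPS and 6 and 0 with Dex late, moved more. In the same order they were 63, 28, 67 and 4 after quantile normalization. With the z-score 42 were higher with Dex before LPS, and 31 were higher and 1 lower with Dex late. Without scaling, and likewise with a trend in the prior variance, 19 were higher and 1 lower with Dex late. Average density and summed width gave 0 in each, and without the lower 50% of regions 4 were higher and 0 lower with Dex before LPS. With a library left out the counts ran from 0 to 7 higher and from 0 to 4 lower with Dex before LPS, and from 0 to 0 higher with Dex late. With the replicate block they were 486, 527, 427 and 202. Libraries of the same number deviated together, with correlations of 0.536 to 0.603 over 25091 regions between groups, but the labels do not tie a number to a shared animal, batch or day, and each comparison has 2 pairs. With the replicate block 0 of the 7 Cxcl regions passed in any comparison, and the covered lengths kept their differences, each with an exact permutation p of 0.5, the smallest that permuting within numbers allows.

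Of the 17 regions, 11 were left with equal list lengths and 8 in the stronger 50% of each list. Regions in both LPS lists and in no Dex list, 1 as deposited, numbered 0 with equal lengths, with a common minimum z-score and in the stronger 50%, and 1 to 2 with a library left out. Regions in both LPS lists and neither list of Dex before LPS numbered 0 with equal lengths and with a common minimum z-score. For Dex late they numbered 0 under these and in the stronger 50%, and 2 where a hotspot had to cover 50% of the region. Total tag numbers, and the number of tags that a step of density stands for, are not known, so no counting error was given.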
